A study of Xenopus laevis with 2 samples.

Results

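The actin isoforms were the subject of the comparison: the muscle actin genes acta1, acta2 and actc1 and the cytoplasmic actin genes actb and actg1. Members were all transcripts whose gene symbol, without copy endings, was acta1, acta2, actc1, actb, actg1 or actg2. This gave 6 transcripts of 5 genes among 8879 transcripts of 8081 symbols. There was 1 transcript each for actc1, acta1, acta2 and actb, 2 for actg1, and no transcript was listed under actg2. The actg1 transcripts are the L and S homeologs, that is, the copies on the L and S subgenomes of this allotetraploid frog. They are called actg1 (L) and actg1 (S) here, after a name table of assembly Xenopus_laevis_v10.1.

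The RNA came from hearts of Xenopus laevis tadpoles at stage 44 to 45. Siblings had been injected at fertilization with a morpholino against tcf21 (Tcf21-MO) or with a control morpholino (Control-MO). Morpholinos are modified antisense oligonucleotides that bind an RNA and keep it from being translated or spliced, and both groups carried an injected one. Each group was 1 library of polyadenylated RNA from 70 to 100 pooled hearts, so each value is that of a pool, differences have no replicate check, and ratios compare these libraries, not the conditions. Depth was 17767221 reads for Tcf21-MO and 17636925 reads for Control-MO. The intervals are 95% intervals for counting error only.

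The library labelled Tcf21-MO had 3738 tcf21 reads and the Control-MO library 1266. How the morpholino acts is not in the labels, so these reads are no check of them. Of the 13 measured cardiomyocyte markers, all were above the floor of 20 reads over both libraries. The one with the most reads was the cardiac myosin heavy chain transcript myh6, with 404343 reads in Tcf21-MO and 657555 reads in Control-MO.

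Actin is the subunit of the thin filament of the sarcomere and of the microfilaments of every cell. In vertebrates, actc1 is the main actin of adult heart muscle, acta1 that of skeletal muscle and acta2 that of vascular smooth muscle. In mouse and chick embryos, heart muscle also expresses acta1 and acta2 for a time, and acta2 is a common marker of myofibroblasts. The cytoplasmic actins actb and actg1 form the cytoskeleton of muscle and non-muscle cells alike, and actb is often used as a reference gene. Muscle actin genes are known targets of serum response factor (SRF) and its coactivator myocardin. The proteins differ by few residues, and the coding parts of their mRNAs are similar. Reads can therefore be shared between actin transcripts, and every single value below is uncertain for that reason.

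The muscle actin transcripts were lower and the cytoplasmic ones higher in the Tcf21-MO library. The acta2 transcript was 2.83-fold lower, acta1 1.97-fold lower and actc1 1.17-fold lower. The actb transcript was 1.67-fold higher, actg1 (S) 1.46-fold higher and actg1 (L) 1.20-fold higher. Of the 6 transcripts, 1 (acta2) passed the rule of a 2-fold difference with an interval that excludes a ratio of 1, and it was lower. Over all 8132 transcripts with at least 20 reads, 2.40% passed this rule as lower and 2.67% as higher. These were 195 lower and 217 higher transcripts, and with a minimum of 100 reads 106 were lower and 152 higher. The shares of all transcripts given here and below were not matched to the actins by read count. The remaining 5 actin transcripts did not pass it. At 1.5-fold, acta1 and acta2 were lower, where 6.67% of all transcripts were, and actb was higher, where 7.82% were. No scaling of the libraries that was tried turned the direction of any of the 6.

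**Figure D1:**
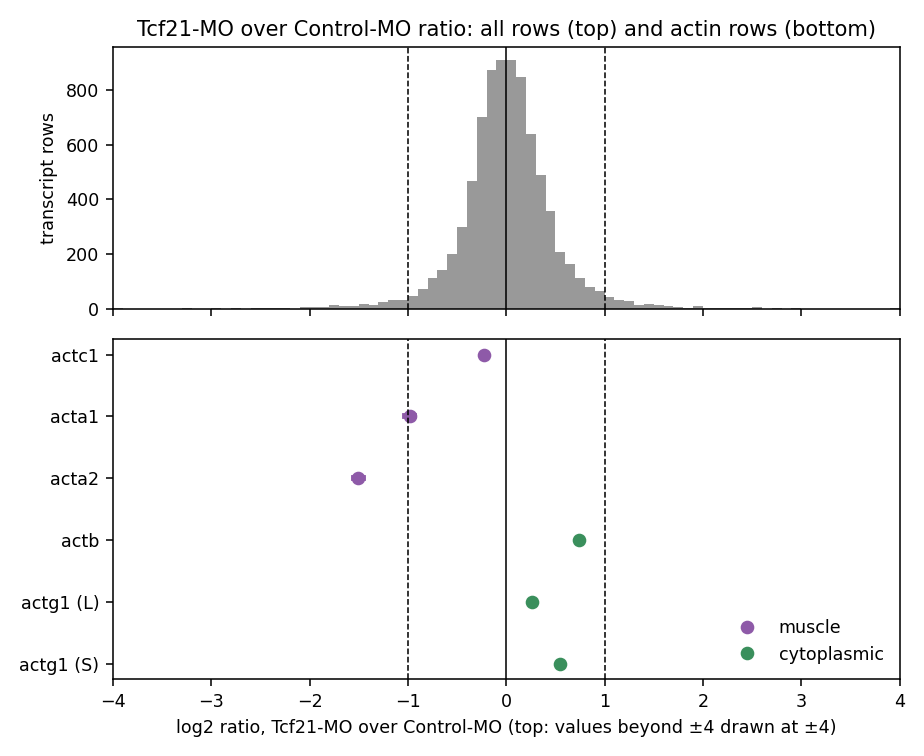
Top: number of transcripts by log2 ratio of Tcf21-MO over Control-MO, for the 8132 transcripts with at least 20 reads. Bottom: the same ratio for each actin transcript, with its 95% counting interval, which is narrower than the point for most; dashed lines mark 2-fold. The 3 muscle transcripts lie left of 0, the 3 cytoplasmic ones right of it, and acta2 alone lies clearly beyond 2-fold.

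By level per kb of deposited length, the listed transcript of cardiac actin, actc1, was the highest of the 6 actin transcripts in both libraries. By reads alone, actb exceeded it in Tcf21-MO, with 150701 reads. The actc1 transcript had 148973 reads in Tcf21-MO and 176839 reads in Control-MO. At its length of 1399 bp, these are levels of 6071 CPM per kb in Tcf21-MO and 7076 CPM per kb in Control-MO, that is, counts per 1000000 reads of the effective library size and per 1000 bases of transcript. In Tcf21-MO it was the transcript with the 7th highest level per kb of the whole table, and in Control-MO likewise the 7th. It was 1.17-fold lower in Tcf21-MO (1.16 to 1.17), and 25.9% of all transcripts had a lower ratio. The value was thus inside the bulk of the table.

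The skeletal muscle actin transcript acta1 had 5754 reads in Tcf21-MO and 11559 reads in Control-MO. Per kb of its 1473 bp, its level was 223 CPM in Tcf21-MO and 439 CPM in Control-MO. The difference was 1.97-fold lower (1.91 to 2.04), and this interval held the threshold of 2-fold. When the libraries were scaled to their total counts, acta1 did pass it, with a log2 ratio of -1.02 in place of -0.98. Of all transcripts, 2.63% had a lower ratio than acta1.

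The smooth muscle actin transcript acta2 had the lowest ratio of the family. It had 5081 reads in Tcf21-MO and 14657 reads in Control-MO, or 0.0286% (0.0278 to 0.0294) of all reads in Tcf21-MO and 0.0831% (0.0818 to 0.0845) in Control-MO. Per kb of its 1299 bp, its level was 223 CPM in Tcf21-MO and 632 CPM in Control-MO. It was 2.83-fold lower (2.74 to 2.92), and 1.05% of all transcripts had a lower ratio. In the order of levels per kb over the whole table, acta2 was at place 419 in Tcf21-MO and at place 186 in Control-MO. In bulk RNA, fewer cells of a type and less RNA per cell cannot be told apart.

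The cytoplasmic actin transcript actb had 150701 reads in Tcf21-MO and 91850 reads in Control-MO. Its level per kb of 1662 bp was 5169 CPM in Tcf21-MO and 3094 CPM in Control-MO, place 13 of the table in Tcf21-MO and place 53 in Control-MO. It was 1.67-fold higher (1.66 to 1.68), and 94.7% of all transcripts had a lower ratio. This is the largest positive ratio among the 6 actin transcripts.

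Of the gamma actin homeologs, actg1 (L) had 80854 reads in Tcf21-MO and 68471 reads in Control-MO, and actg1 (S) had 40430 reads in Tcf21-MO and 28204 in Control-MO. Their levels per kb were 2280 CPM in Tcf21-MO and 1896 CPM in Control-MO for the L copy of 2022 bp, and 2038 CPM in Tcf21-MO and 1396 CPM in Control-MO for the S copy of 1131 bp. The S copy has the shortest deposited length of the actin transcripts, 377 codons if all of it were coding. If so, its reads would come only from the coding part, where actins are similar. This was not checked, so its level per kb and its ratio may not compare with those of the longer transcripts. The L copy was 1.20-fold higher (1.19 to 1.21) and the S copy 1.46-fold higher (1.44 to 1.48). Over both, with 121284 reads in Tcf21-MO and 96675 in Control-MO, the ratio was 1.28 (1.27 to 1.29). The gap between the S and the L copy was 0.28 on the log2 scale. Among 567 homeolog pairs of the table, the median gap was 0.21 without regard to sign, and 39.0% of pairs had a gap at least as large as that of actg1. The ratio of the S to the L copy of actg1 was 1.21-fold higher in Tcf21-MO (1.19 to 1.24), a difference beyond counting error. The pairs were not matched to actg1 by read count, and gaps between transcripts with few reads hold more counting error. The share of 39.0% therefore cannot show whether the actg1 gap is usual for pairs with as many reads.

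**Figure D2:**
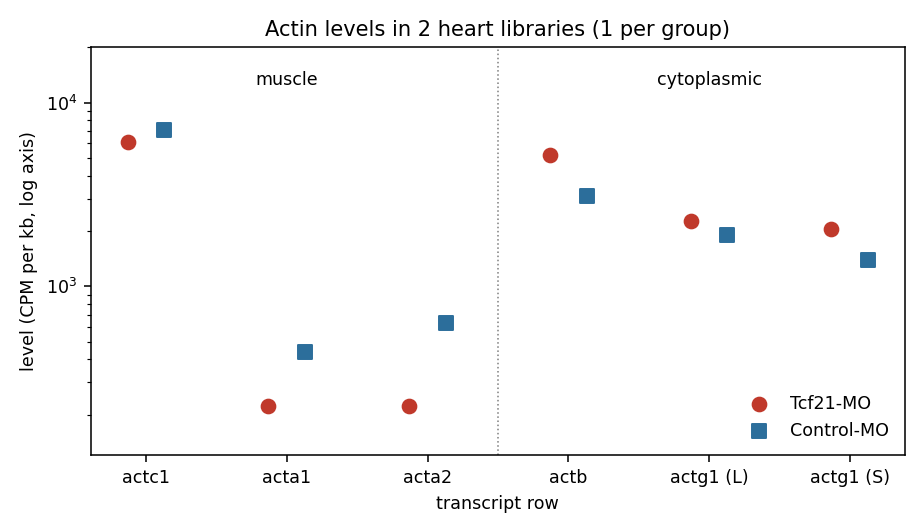
Level per kb of each actin transcript on a log axis, in CPM per kb, in the Tcf21-MO library (red circles) and the Control-MO library (blue squares), 1 library per group. The red circle lies below the blue square for actc1, acta1 and acta2, and above it for actb and both actg1 copies; acta1 and acta2 lie at the same level of 223 CPM per kb in Tcf21-MO.

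The order of levels per kb was actc1, actb, actg1 (L), actg1 (S), acta2 and acta1 in each library. In Tcf21-MO the last neighbours could not be told apart, since acta2 over acta1 was 1.00 (0.964 to 1.04). In Control-MO acta2 was 1.44 times the level of acta1 (1.40 to 1.47). All other neighbours differed beyond their counting intervals. The order depends on the deposited lengths. By reads alone, actb exceeded actc1 and acta1 exceeded acta2 in Tcf21-MO.

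The actin transcripts of the chosen symbols together took 2.43% of all reads in Tcf21-MO and 2.22% in Control-MO. The summed level of the 6 transcripts was 16004 CPM per kb in Tcf21-MO and 14531 CPM per kb in Control-MO, a ratio of 1.10. The summed level of the 3 muscle transcripts was 6516 CPM per kb in Tcf21-MO and 8146 CPM per kb in Control-MO. That of the 3 cytoplasmic transcripts was 9487 CPM per kb in Tcf21-MO and 6385 CPM per kb in Control-MO. The total thus differed little while its parts went in opposite directions. The summed reads of the muscle transcripts were 1.25-fold lower (1.24 to 1.26), and those of the cytoplasmic transcripts 1.47-fold higher (1.46 to 1.48). Sharing of reads within the muscle transcripts, or within the cytoplasmic ones, leaves these summed reads as they are, provided each read was counted once. Sharing between a muscle and a cytoplasmic transcript would change them, and its extent was not checked.

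As a composition, muscle actins made up 40.7% of the summed actin level in Tcf21-MO and 56.1% in Control-MO. The ratio of muscle to cytoplasmic actin level was 0.687 (0.683 to 0.691) in Tcf21-MO and 1.28 (1.27 to 1.28) in Control-MO. Among the 6 listed transcripts, the cytoplasmic actins were thus the larger part in Tcf21-MO and the muscle actins in Control-MO. Both homeologs of actg1 are listed, but only 1 each of acta1, acta2, actc1 and actb. Which part is larger may therefore depend on the copies listed. The ratio of both values was 0.538 (0.534 to 0.543), which needs no scaling between the libraries. The share of actc1 was 37.9% (37.8 to 38.1) in Tcf21-MO and 48.7% (48.5 to 48.9) in Control-MO. The share of actb was 32.3% (32.2 to 32.4) in Tcf21-MO and 21.3% (21.2 to 21.4) in Control-MO. The share of acta2 was 1.39% (1.36 to 1.43) in Tcf21-MO and 4.35% (4.28 to 4.42) in Control-MO, and that of acta1 was 1.39% (1.36 to 1.43) in Tcf21-MO and 3.02% (2.97 to 3.08) in Control-MO. The share of actg1 (S) was 12.7% in Tcf21-MO and 9.61% in Control-MO, and that of actg1 (L) 14.24% in Tcf21-MO and 13.04% in Control-MO.

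**Figure D3:**
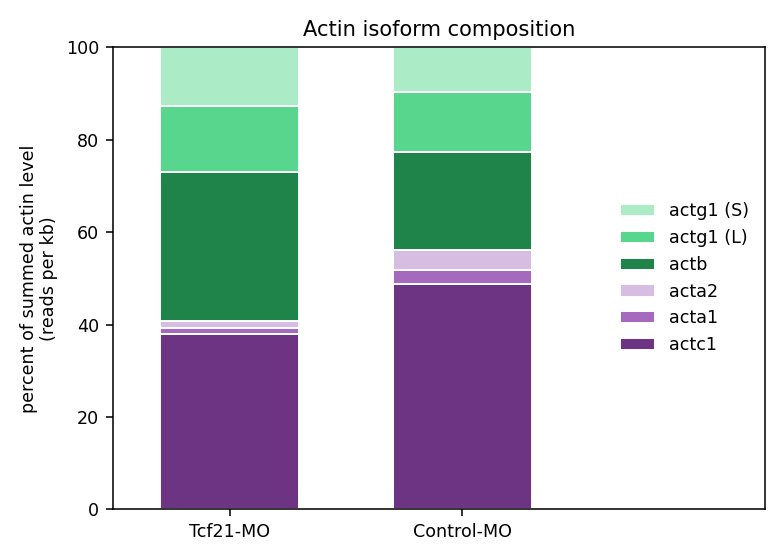
Share of each transcript in the summed actin level (reads per kb), in percent, for the Tcf21-MO library (left bar) and the Control-MO library (right bar). Muscle actins are purple and cytoplasmic actins green; the purple part is 40.7% of the left bar and 56.1% of the right one.

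Ratios between actins within a library do not depend on scaling. The level of acta2 was 0.0367 times that of actc1 (0.0357 to 0.0378) in Tcf21-MO and 0.0893 times (0.0878 to 0.0908) in Control-MO. Relative to actc1, acta2 was 2.43-fold lower in Tcf21-MO (2.35 to 2.51). The acta1 transcript was 0.0367 times actc1 in Tcf21-MO and 0.0621 times actc1 in Control-MO, 1.69-fold lower (1.64 to 1.75). The muscle actins thus did not differ between the libraries by 1 common factor. In reads, acta2 amounted to 3.41% of actc1 in Tcf21-MO and to 8.29% in Control-MO.

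Relative to actb, the differences of the muscle actins were larger. The level of actb was 0.852 times that of actc1 in Tcf21-MO and 0.437 times in Control-MO, a 1.95-fold higher ratio (1.93 to 1.97). Against actb as the reference gene, acta2 was 4.73-fold lower in Tcf21-MO (4.58 to 4.89), acta1 3.30-fold lower (3.19 to 3.41) and actc1 1.95-fold lower. Against actg1 (L), acta2 was 3.41-fold lower (3.29 to 3.52) and actc1 1.40-fold lower (1.38 to 1.42). The size of a muscle actin difference thus depended on which cytoplasmic actin it was set against. Of the 15 pairs of actin transcripts, 15 had a ratio that differed between the libraries beyond counting error. At these read counts the intervals are narrow, and no share over other pairs was computed. In the 9 pairs of a muscle over a cytoplasmic actin, the ratio was 1.40-fold to 4.73-fold lower in Tcf21-MO. These directions follow from the single ratios of the same transcripts above and are no further support.

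**Figure D4:**
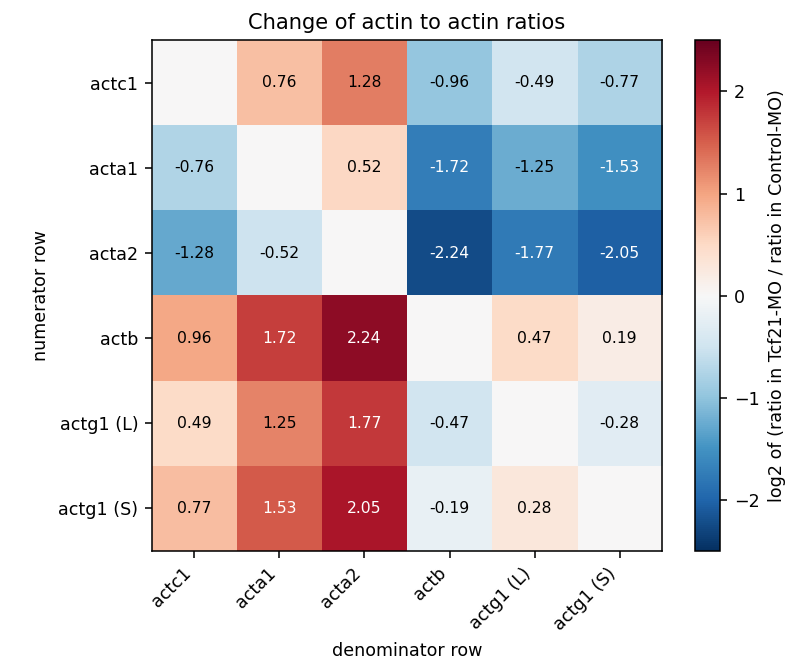
Log2 of the ratio of the row transcript to the column transcript in Tcf21-MO, divided by the same ratio in Control-MO. Blue cells are ratios that were lower in Tcf21-MO, red cells ratios that were higher; all 9 cells of a muscle transcript over a cytoplasmic one are blue, and acta2 over actb is the deepest.

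An actin outside the chosen symbols was listed as act3, which the name table calls acta4.L. It had 6740 reads in Tcf21-MO and 10778 reads in Control-MO. Its level was 303 CPM per kb in Tcf21-MO and 475 CPM per kb in Control-MO. This was 1.36 times the level of acta1 in Tcf21-MO and 1.08 times in Control-MO, yet act3 is not part of the sums, shares and order of levels above. The act3 transcript was 1.57-fold lower in Tcf21-MO (1.52 to 1.62), the same direction as acta1, acta2 and actc1. Of the 5 measured actin-related genes on the same list, actr6, a subunit of a chromatin remodelling complex, was 1.40-fold lower (226 reads in Tcf21-MO and 322 in Control-MO). The dynactin subunit genes actr10 and actr1a had ratios of 0.978 and 1.06, and the chromatin complex genes actl6a and actr8 had ratios of 1.02 and 1.09. None of these 6 transcripts passed 2-fold, where 2.40% of all transcripts did as lower and 2.67% as higher. Of the 6, act3 had the lowest ratio. Their median log2 ratio, which pools act3 with the 5 actin-related genes, was 0.00 (-0.65 to 0.13), as was that of all transcripts.

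The transcripts closest to each actin in log2 ratio were sought among those whose mean level per kb was within 2-fold of its own, over 2 libraries. For acta2, the closest of 264 was prdx2, a peroxiredoxin gene, with 2578 reads in Tcf21-MO and 7304 in Control-MO (2.78-fold lower), and then the globin gene hbg2 (2.15-fold lower). For acta1, the closest were hbg2 and the muscle methyltransferase gene smyd1 (1.75-fold lower). For actc1, they were tpt1 (1.18-fold lower) and the tropomyosin gene tpm1 (1.12-fold lower). The closest to actb were the ribosomal protein genes rpl38 and rplp2 (ratios of 1.66 and 1.64). For actg1 (L), the ribosomal protein gene rpl9 (1.20) is given, and those closest to actg1 (S) were the cytochrome oxidase subunit genes cox7b and cox7a2 (1.45 and 1.44).

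The measured smooth muscle markers did not share the low ratio of acta2, but only 9 of the 18 listed markers were measured. None of the 9 passed 2-fold in either direction, and their median log2 ratio was -0.21 (-0.41 to 0.48). Over all transcripts, 2.40% passed as lower and 2.67% as higher, so a count of 0 among 9 says little by itself. The transgelin gene tagln, an actin-binding protein of smooth muscle, had 871 reads in Tcf21-MO and 637 reads in Control-MO and a ratio of 1.39 (1.26 to 1.54). The smoothelin gene smtn, with 419 reads in Tcf21-MO and 407 in Control-MO, had a ratio of 1.05 (0.913 to 1.20), and csrp1 a ratio of 1.05. The myosin light chain gene myl9 was 1.33-fold lower (1.3 to 1.36), the tropomyosin gene tpm2 1.36-fold lower and the desmin gene des 1.15-fold lower. The transcript listed as cnn1, which the name table calls cnn2, was 1.17-fold lower. The muscle gene mustn1 had the highest ratio, 1.73 (1.60 to 1.88), and ntf3, with 32 reads in Tcf21-MO and 40 in Control-MO, was 1.22-fold lower with an interval that included 1. The other markers, such as the smooth muscle myosin gene myh11 and the kinase gene mylk, had no transcript under their symbol. These values therefore cannot show how smooth muscle genes as a whole differed. They also come from whole hearts and are not values of smooth muscle cells alone, and tpm2 is on the thin filament list too.

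Among the regulators of muscle actin transcription, the myocardin gene passed 2-fold narrowly, with an interval that held this threshold. Of 14 measured genes of the SRF list, 1 was at least 2-fold lower and 0 were higher. Of all transcripts, 2.40% were lower by this rule and 2.67% higher. A log2 ratio below 0 was found for 10 of the 14, and for 4032 of all 8132 transcripts. The median was -0.25 (-0.68 to 0.23). The gene of myocardin, myocd, had 553 reads in Tcf21-MO and 1138 reads in Control-MO and was 2.02-fold lower (1.82 to 2.24). The srf transcript itself had 1203 reads in Tcf21-MO and 1524 reads in Control-MO, 1.24-fold lower (1.15 to 1.34). The myocardin-related factor genes mkl1, called mrtfa in the name table, and mkl2 had ratios of 0.886 (0.788 to 0.995) and 1.09 (0.924 to 1.3).

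Among the other cardiac regulators of that list, smyd1 was 1.75-fold lower, the homeobox gene nkx2-5 1.60-fold, mef2a 1.59-fold, mef2c 1.57-fold and mef2d 1.25-fold lower. The zinc finger gene gata4 had a ratio of 1.21 (1.13 to 1.29). The ETS factor genes elk1, elk3 and elk4, alternative partners of SRF, had ratios of 1.28, 0.965 and 1.17, each with an interval that included 1, as did cited2 at 0.876.

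Genes of the thin filament list, which also holds Z-disc genes and the cytoskeletal tpm4, had ratios on both sides of that of actc1. The 2-fold rule was passed by 1 of 12 measured genes, which was lower, and the median log2 ratio was -0.34 (-0.54 to 0.00). Of all transcripts, 2.40% passed the rule as lower. The actin-binding Z-disc gene nexn was 2.27-fold lower (2.16 to 2.38), the troponin gene tnnt2 1.57-fold lower and the Z-disc gene ldb3 1.45-fold lower. At the other end were tpm4, a tropomyosin gene of the cytoskeleton, with 8948 reads in Tcf21-MO and 6986 in Control-MO and a ratio of 1.3 (1.26 to 1.35), csrp3 (1.13) and pdlim5 (1.00). While 2.40% of all transcripts passed 2-fold as lower and 2.67% as higher, 0 of 13 cardiomyocyte markers did. A log2 ratio below 0 was found for 10 of them, and for 4032 of all 8132 transcripts. The median of these markers was -0.35 (-0.65 to 0.17). Their summed level was 41340 CPM in Tcf21-MO and 59129 CPM in Control-MO, 1.43-fold lower. The myh6 transcript carried most of both sums, with 23051.7 CPM in Tcf21-MO and 36807.5 CPM in Control-MO. Their lowest members were nkx2-5, myh6 (1.60-fold lower) and tnnt2, and their highest were the natriuretic peptide genes nppb (1.58) and nppa (1.14) and csrp3.

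Skeletal muscle markers, set beside acta1, were mixed. The 2-fold rule was passed by 3 of 16 measured genes, all lower, beside 2.40% of all transcripts that passed it as lower. The median log2 ratio of the 16 was -0.13 (-0.996 to 0.40). The 3 were tmod4, a tropomodulin gene, with 77 reads in Tcf21-MO and 409 in Control-MO (5.19-fold lower), the troponin gene tnnt1 (2.08-fold lower) and the regulator gene myog with 7 reads in Tcf21-MO and 20 in Control-MO, while the myosin gene myh1 was 1.99-fold lower. Their highest members were the transcript listed as pvalb, which the name table calls ocm3 (1.46), and the fast troponin genes tnnc2 (1.36) and tnni2 (1.32). The creatine kinase gene ckm carried most of the summed level, with 67750 reads in Tcf21-MO and 56592 in Control-MO. The summed level of the 16 was 5214 CPM in Tcf21-MO and 4582 CPM in Control-MO. With a minimum of 100 reads, or with 5 counts added, 2 of the list were lower in place of 3, and with total count scaling, or with no minimum of reads, 4. The defining regulator genes myod1 and myf5 had fewer than 20 reads over both libraries.

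Of 16 measured genes of the Arp2/3 complex and its activators, which start branched filaments, 1 was at least 2-fold higher and 0 lower. Of all transcripts, 2.67% were higher by this rule. A log2 ratio above 0 was found for 14 of the 16, some with an interval that included 0, and for 4100 of all 8132 transcripts. The median was 0.25 (0.08 to 0.39). The Wiskott-Aldrich gene was, an Arp2/3 activator of blood cells, was past the threshold, with 671 reads in Tcf21-MO and 139 reads in Control-MO (4.90-fold higher, 4.09 to 5.95). Next were cyfip2 (1.53) and arpc1b (1.34). The lowest were arpc4 (0.926), abi2 (0.992) and arpc3 (1.04). Of 4 measured formin and related genes, the formin gene inf2 was 2.20-fold higher (1.87 to 2.60), fmnl1 had a ratio of 1.55 and fhod1 of 1.06, cobl was 1.59-fold lower, and the median was 0.36.

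Of 23 genes of actin monomers and filament turnover, 14 lay above 0, as did 4100 of all 8132 transcripts. Only 1, tmod4, was past 2-fold on the lower side, where 2.40% of all transcripts were. The median of the 23 was 0.12 (-0.09 to 0.31). The profilin genes pfn1 and pfn2, whose proteins deliver actin monomers, had ratios of 1.39 (1.35 to 1.43) and 1.38 (1.33 to 1.44), and the kinase gene limk1 a ratio of 1.47 from 32 reads in Tcf21-MO and 22 in Control-MO. The muscle cofilin gene cfl2 was 1.64-fold lower (3449 reads in Tcf21-MO and 5768 in Control-MO) and cap2 1.56-fold lower. While 2.40% of all transcripts passed 2-fold as lower and 2.67% as higher, 0 of 15 crosslinkers and membrane linkers did. The median of these 15 was 0.19 (-0.04 to 0.40). Their highest members were dbn1 (1.69), the adhesion gene zyx (1.66) and the talin gene tln2 (1.45), and their lowest evl (1.44-fold lower), ezr (1.32-fold) and anln (1.10-fold). The actin folding list held genes of the CCT chaperonin and prefoldin, which fold actin, and pdcl3, a subunit of neither. Of its 12 measured genes, 0 passed 2-fold, beside the same shares of all transcripts, and the median of the 12 was -0.01 (-0.11 to 0.22). Their lowest were pdcl3 (1.5-fold lower), vbp1 (1.20-fold) and cct3 (1.08-fold), and their highest cct5 and pfdn5 (both 1.18) and cct7 (1.17).

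**Figure D5:**
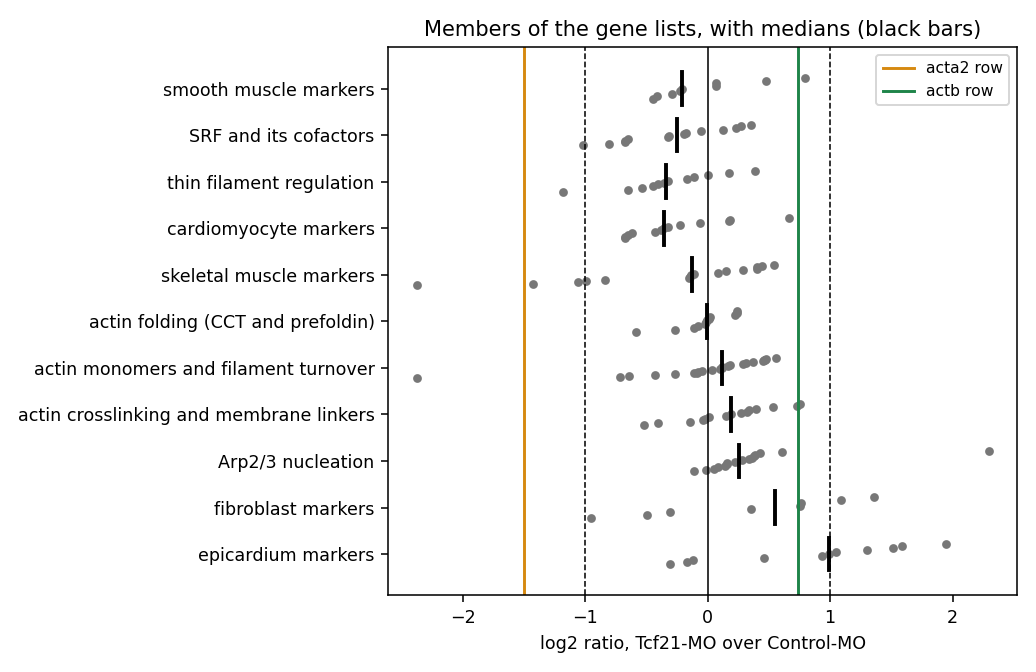
Log2 ratio of Tcf21-MO over Control-MO for each measured gene (grey points) of 11 gene lists, with the median of each list (black bar) and 2-fold (dashed). The orange line marks the ratio of acta2 and the green line that of actb. None of the measured smooth muscle markers lies near the orange line.

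Epicardium and leukocyte markers were partly higher and erythroid markers lower in Tcf21-MO, and their part in the actin values was not tested. Fibroblast markers went both ways and no endothelial marker passed 2-fold. Over all transcripts, 2.67% were past 2-fold as higher and 2.40% as lower. Among 8 measured fibroblast markers, 2 were past 2-fold, the collagen genes col1a2 (2.57-fold higher) and col1a1 (2.12-fold higher), and the median log2 ratio was 0.55 (-0.95 to 1.36). Their summed level was 9041 CPM in Tcf21-MO and 4813 CPM in Control-MO. Next highest was col3a1 (1.69), and the lowest were the receptor gene pdgfra (1.94-fold lower), lum (1.41-fold) and dcn (1.24-fold). Among 11 epicardium markers, 5 were past 2-fold, each of them higher, and the median was 0.99 (-0.17 to 1.59). Their sum was 2789 CPM in Tcf21-MO and 1546 CPM in Control-MO. The morpholino target tcf21 is 1 of the 5 and is part of this median and sum. Likewise, 4 of 7 leukocyte markers were past 2-fold and higher, at a median of 1.18 (0.19 to 1.97). Their sum was 419 CPM in Tcf21-MO and 257 CPM in Control-MO.

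Of all transcripts, 2.40% were past 2-fold on the lower side, and all 11 measured erythroid markers were, at a median of -1.76 (-2.51 to -1.10). The summed level of the erythroid markers was 8622 CPM in Tcf21-MO and 33697 CPM in Control-MO. Of 6 endothelial markers, 0 passed 2-fold, with a median of -0.08 (-0.21 to 0.31) and a summed level of 416 CPM in Tcf21-MO and 437 CPM in Control-MO. No measured marker of these 5 cell types was at 0.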

How the data were processed

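Hearts were compared by RNA sequencing in 2 libraries, 1 per group, assigned by the label that names the injected morpholino. The authors deposited counts of whole reads per RefSeq transcript, not normalized, with a transcript length in bp, another kind of value, per the file headers. Bowtie2 2.0.0.6, SAMtools 0.1.18.0 and CASAVA 1.7 appear in the submitters' processing notes, without a role. How reads were counted (reference, strand, reads with several matching transcripts) is not given in the sources used here. Of the 10 member genes in the name table, 4 homeologs, 1 each of acta1, acta2, actc1 and actb, have no transcript of their own in the analysis. Their reads may count towards the listed copy.

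Counts were scaled by TMM (edgeR 4.0.16, R 4.3.3; factors 0.987 for Tcf21-MO and 1.013 for Control-MO). Log2 ratios had 0.5 counts added. Intervals are exact binomial (Clopper-Pearson) for ratios of reads and normal approximations for shares and for ratios of ratios. Reads from amplified libraries are not independent molecules, so intervals cover counting error only. With 1 library per group no p-value was computed. A list's gene with several transcripts was represented by the most abundant, and medians have order-statistic intervals. Python 3.11.15, NumPy 2.4.6, SciPy 1.17.1 and pandas 2.3.3 were used. The procedure was run on simulated counts that held counting error only. This run therefore cannot speak to variation between pools or to reads shared between transcripts.

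The members and the 16 gene lists were chosen with earlier results of these data known. Named were all actin transcripts, all members of the lists of other actins, SRF and smooth muscle, and in each other list the 3 highest and 3 lowest with at least 50 reads over both libraries. A transcript that the rule on the closest ratios selects is not reported here. Of the lists of epicardium, endothelial, erythroid and leukocyte markers, the counts, medians and summed levels are given without the members that this rule selects, apart from tcf21 and hbg2. The transcripts myog and ckm and those in the closing section were named after their values were seen.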

Additional observations from a re-analysis of the deposited data

How the results depend on the processing

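No direction of an actin transcript turned under any setting run. DESeq2 size factors, TMM without the 50 most abundant or without the actin transcripts, and 5 added counts, where run, moved no actin log2 ratio and no list median beyond its interval. Scaling to total counts gave log2 ratios of 0.70 for actb, 0.51 and 0.23 for actg1 (S) and (L) and -0.26 for actc1. Scaling to the total without the 50 most abundant transcripts, added after seeing the data, gave 0.66, 0.46, 0.18 and -0.31 in the same order, with -1.06 for acta1 and -1.59 for acta2. Under both, 2 actin transcripts were at least 2-fold lower, as acta1 joined acta2. The summed actg1 copies had 0.35. At 1.5-fold, 1 actin transcript was higher and 2 lower. Over all transcripts, 636 were higher and 542 lower at 1.5-fold. By the 2-fold rule with a minimum of 100 reads, 106 were lower in place of 195, and 152 higher in place of 217.

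Without division by length, shares in Tcf21-MO were 1.33% for acta1, 1.18% for acta2, 34.9% for actb, 34.5% for actc1, 18.7% for actg1 (L) and 9.36% for actg1 (S). In Control-MO they were, in the same order, 2.95%, 3.74%, 23.5%, 45.2%, 17.5% and 7.20%. Ratios to actc1 were then 0.0341 for acta2, 0.0386 for acta1 and 1.01 for actb in Tcf21-MO, and 0.0829, 0.0654 and 0.519 in Control-MO. Muscle over cytoplasmic was 0.588 in Tcf21-MO and 1.08 in Control-MO, a change of 0.546. With actg1 copies summed, it was 0.682 in Tcf21-MO and 1.25 in Control-MO, again a change of 0.546, and shares were 37.8% for actc1 in Tcf21-MO, and 48.2% for actc1 and 21.1% for actb in Control-MO.

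At 1.5-fold, lower members numbered 1 for other actins, 1 for formins, 3 for filament turnover, 1 for actin folding, 5 for SRF, 2 for thin filament, 4 for cardiomyocyte, 5 for skeletal muscle and 1 for fibroblast markers. Higher members numbered 2 each for Arp2/3, formins and crosslinkers, 1 each for smooth muscle and cardiomyocyte and 4 for fibroblast markers. Over all transcripts, 6.67% were lower and 7.82% higher at 1.5-fold. Without a minimum of reads, 2 turnover genes were lower and the formin median was 0.0828. With a minimum of 100 reads, 2 leukocyte markers were higher. Scaled to the total without the 50 most abundant transcripts, the setting added after seeing the data, 1 fibroblast marker was lower. The causes were not tested. Coding lengths were not run, since no protein lengths were used here. No paired analysis was possible because each group has 1 library.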

Other observations

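Some other actin-associated genes that exist as a muscle and a non-muscle form were set side by side after their values were seen. In each of the 5 pairs chosen, the ratio of the muscle form to the non-muscle form was lower in Tcf21-MO. The pairs with actn1 and actn4 share the muscle form actn2. The level per kb of cap2, the striated muscle form of cyclase-associated protein, was 0.368 times that of cap1 in Tcf21-MO and 0.745 times in Control-MO, 2.02-fold lower (1.85 to 2.21). The ratio of the muscle cofilin cfl2 to the general cofilin cfl1 was 0.108 in Tcf21-MO and 0.168 in Control-MO, 1.56-fold lower (1.48 to 1.63). The sarcomeric alpha-actinin actn2 over the cytoskeletal actn1 was 9.07 in Tcf21-MO and 15.2 in Control-MO, 1.68-fold lower (1.60 to 1.76), and over actn4 it was 1.74-fold lower (1.66 to 1.83). The tropomyosins tpm1 over tpm4 gave 22.5 in Tcf21-MO and 33.0 in Control-MO, 1.46-fold lower (1.42 to 1.51). The pairs share both libraries and were chosen for these values, so their common direction follows from the choice and is only a description.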
